A study of Homo sapiens with 8 samples.

Results

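The genes described here build or take apart the cornified envelope, the cross-linked protein and lipid shell of a terminally differentiated keratinocyte, together with other genes of keratinocyte differentiation. A list of 38 such genes was used, of which 37 were matched to a probe set with a single gene symbol among 18239 genes in all, and SPINK5 was not matched. They were measured in 4 established human cell lines of oral squamous cell carcinoma (OSCC), namely SAS-L1, HSC2, HSC3 and Ca9-22. Dishes were reverse transfected, with a lipid reagent, with the miR-375-3p mimic or the non-targeting mimic miR-NT, both at 20 nM, and total RNA was taken at 48 h for an Affymetrix Human Genome U219 array. There was 1 array for each line and condition, 8 in all, so a condition has 4 arrays from 4 different lines and no line was tested by itself. The study describes these lines as lacking this miRNA, so the mimic adds it to cells without it. The labels do not say whether the dishes of a line came from separate cultures.

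In stratified epithelium, basal keratinocytes that leave the basement membrane exchange basal keratins for suprabasal ones, then lay down envelope precursors such as involucrin and the small proline-rich (SPRR) proteins. Transglutaminases cross-link these precursors to one another and to the plakins that tie them to desmosomes. Kallikreins, a family of secreted serine proteases, later cut the desmosomal links so that cells can be shed, and cystatins, elafin and Kazal-type inhibitors hold proteases in check. Oral mucosa and well differentiated OSCC can carry parts of this program, and growing carcinoma cells in culture often carry little of it.

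The added miRNA is shown first because its seed is the part that pairs with messenger RNAs. In RefSeq (GRCh38.p14) the mature strand lies at chr2:219001648-219001669 on the minus strand. Capitals mark the seed, bases 2 to 8.
hsa-miR-375-3p: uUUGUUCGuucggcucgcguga
Whether the messenger RNAs of these genes hold sites for the seed was not analysed here.

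A further set of sequences is shown because it is shared by the listed genes of chromosome 1 for which promoter sequence was given. It was not used to choose them. Of these genes ECM1 lies apart from the others, and CRCT1, also on chromosome 1, had no promoter sequence. For AP-1, the dimer of FOS and JUN family proteins, the 7-base motif TGANTCA was searched, with any base at N. This pattern reads the same on both strands. The promoter windows of RefSeq (GRCh38.p14), 250 bases before to 50 after the start of a gene, were given for 30 of the 38 genes. The motif was found in all 7 genes of chromosome 1 with a window and in 3 of the 23 others (ALOXE3, KRTDAP and SBSN). Among all 27305 genes with a window, 9.37% held it. In FLG, RPTN and ALOXE3 each match has A or T at the middle base. A stricter motif with only G or C there was not counted. The stretches below, of 29 bases with the motif in capitals, hold the match nearest to the start of each chromosome 1 gene and both matches of SPRR1B, each written 5′ to 3′ on the strand of its gene.
IVL, chr1:152908412-152908440, plus strand: gatgcctgtggTGAGTCAggaaggggtta
SPRR1A, chr1:152983962-152983990, plus strand: ggatggtagtgTGAGTCAtgtgtgacagg
SPRR1B, chr1:153031051-153031079, plus strand: atcacaaaagtTGAGTCAacaggtgggtg
SPRR1B, chr1:153031081-153031109, plus strand: gggaagaggggTGAATCAcatctgacagg
SPRR3, chr1:153001568-153001596, plus strand: agggtggacagTGAGTCAggcccaggtga
FLG, chr1:152325301-152325329, minus strand: ttggttaggaaTGAATCAgaccatcccac
RPTN, chr1:152159306-152159334, minus strand: tgggaccagagTGATTCAggctttgccac
ECM1, chr1:150508020-150508048, plus strand: gcagctgggacTGAGTCAtggcaggaagc
In SPRR1B the motif begins 141 and 111 bases before the start, and in SPRR1A it begins 108 bases before it. A match describes the letters and is not a measured binding site.

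By the background level used here, most of the list was near background in these lines. The background level of an array was taken as the 95th percentile of the signals of 334 olfactory receptor genes, which are not expected in oral epithelium, and it lay between 5.64 and 5.91 on the log2 scale. On all 8 arrays 24 of the 37 genes (64.9%) were at or below it, against 46.3% of all genes. They include involucrin (IVL), an early scaffold protein of the envelope, filaggrin (FLG), which bundles keratin filaments, the membrane transglutaminase TGM1, the suprabasal keratins KRT1 and KRT4, and the suprabasal desmosomal cadherins DSG1 and DSC1. IVL had 4.58, 4.44, 4.51 and 4.43 with the mimic for SAS-L1, HSC2, HSC3 and Ca9-22, against 4.54, 4.42, 4.32 and 4.45 with miR-NT. KRT1, the type II partner of KRT10, had 4.53, 4.56, 4.43 and 4.59 with the mimic, against 4.59, 4.88, 4.30 and 4.55 with miR-NT. Neither gene left the background range in any line or condition. CDSN, the desmosomal protein corneodesmosin and the brightest of the 3 adhesion genes, had 4.13, 4.15, 4.15 and 4.12 with the mimic in the same line order, against 4.11, 4.21, 4.03 and 3.99 with miR-NT. The other 22 genes of this kind are SPRR1A, SPRR3, FLG, RPTN, CRCT1, CNFN, TGM1, ALOX12B, KRT4, KLK7, KLK11, KLK13, TMPRSS11D, SPINK7, DSC1, DSG1, CDSN, KRTDAP, SBSN, CALML3, CALML5 and MAL. Across the 24 genes the signals ran between 3.07 and 5.53 with the mimic and between 2.96 and 5.53 with miR-NT. No gene of the 24 passed the test between the mimic and miR-NT, and their mean log2 differences lay between -0.08 and 0.15. These values are of the brightest probe set by mean, and at such signals a fall cannot be measured. CALML3, a calmodulin-like protein of epithelia, was the gene of the 24 with another probe set above background. That probe set had 3.97, 3.58, 3.68 and 4.82 with the mimic in the same line order, against 4.04, 3.48, 3.40 and 6.35 with miR-NT. It was above background on 1 array, Ca9-22 with miR-NT, where the mimic array was 1.54 lower on the log2 scale, a larger difference than any other probe set of the list showed in a line. Its mean difference of -0.31 ± 0.83 did not pass the test (limma adjusted p = 0.621 over all probe sets).

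**Figure D1:**
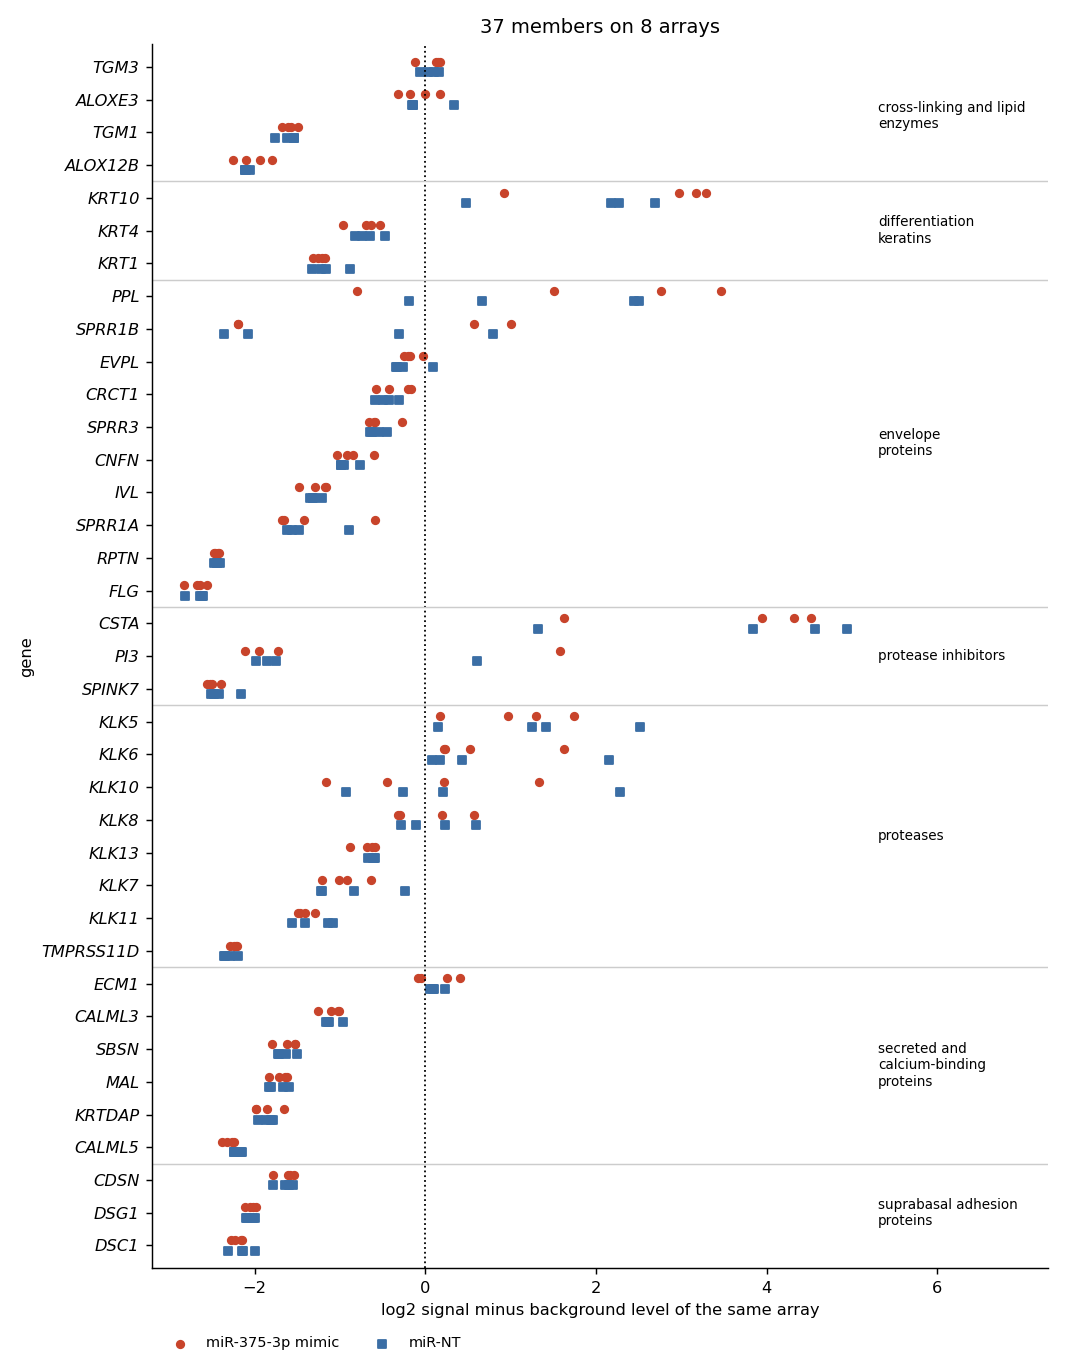
Log2 signal minus the background level of the same array (x axis) for 37 genes (y axis, grouped by role), with a point for each of the 4 mimic arrays (red circles) and the 4 miR-NT arrays (blue squares). The dotted line is the background level, and 24 genes lie at or left of it on all 8 arrays.

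Above background on all 8 arrays were 4 genes, the suprabasal keratin KRT10, the protease inhibitor cystatin A (CSTA) and the kallikreins KLK5 and KLK6. For KLK6 this holds for the brightest probe set, and its others were above background on 2 arrays each, those of SAS-L1. Another 9 genes were above background on 1 to 7 arrays. Among these, SPRR1B, the plakin PPL, elafin (PI3), KLK8 and KLK10 were clearly higher in some lines than in others. By the probe sets read, TGM3, ALOXE3, ECM1 and EVPL exceeded the background by at most 0.17, 0.33, 0.40 and 0.09 on any array. They stayed close to it by that reading. TGM3, a soluble transglutaminase, had 5.86, 5.88, 5.86 and 5.78 with the mimic in the line order used above, against 5.85, 5.93, 5.67 and 5.71 with miR-NT, and the conditions overlapped. ECM1, a secreted glycoprotein, had 5.69, 5.99, 6.09 and 5.81 with the mimic in that order, against 5.80, 5.87, 5.87 and 5.86 with miR-NT. Neither passed the test (limma adjusted p = 0.667 and 0.793). The other probe sets of TGM3 did not exceed the background on any array, and neither did those of ALOXE3. Of the other probe sets of ECM1, 2 differed by line, both highest in HSC3 and lowest in SAS-L1 (limma adjusted p = 0.00127 and 0.00597 over all probe sets). The brighter of them had 6.77 with the mimic and 6.30 with miR-NT in HSC3 and 5.06 with the mimic and 4.88 with miR-NT in SAS-L1.

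The labelled cell type was checked with marker lists. Of 12 listed epithelial markers 8 were measured, namely CDH1, EPCAM, KRT5, KRT14, SFN, LAMB3, DSP and PKP1. Of these, 6 were above background on all 8 arrays. KRT14 was at background in SAS-L1 (4.05 with the mimic, 4.61 with miR-NT) and Ca9-22 (4.21 and 4.28). PKP1 was at background in SAS-L1 and, with the mimic, in Ca9-22. None of 8 fibroblast markers was above background on any array, and CD68, found in many cell types, was the only gene of 14 measured endothelial and immune markers above it on all 8. The epithelial markers KRT5 and SFN fell with the mimic, by 1.73 and 0.43 on the log2 scale (limma adjusted p = 0.0320 and 0.0293). KRT14 was lower with the mimic in each line and did not pass the test (limma adjusted p = 0.0740). The mean signal of the 8 epithelial markers ran between 7.95 and 10.0 with the mimic and between 8.55 and 10.2 with miR-NT. The part of this in the results below was not tested. Signals are those of whole cultures, so a change in the share of expressing cells and a change in RNA per cell cannot be told apart.

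KRT10, a type I keratin that pairs with KRT1 in suprabasal epidermis, was the member that rose with the miR-375-3p mimic. Its log2 signal was 6.66, 8.91, 8.97 and 8.88 with the mimic for SAS-L1, HSC2, HSC3 and Ca9-22, against 6.22, 7.94, 8.33 and 8.04 with miR-NT. It was higher with the mimic in all 4 lines, and the SAS-L1 pair stood apart as the lowest of both conditions. The rise was 1.65-fold, with a log2 difference of 0.72 ± 0.23 over the lines (SD, n = 4; limma adjusted p = 0.00936) and a 95% interval of 0.49 to 0.95. It was smallest in SAS-L1, at 1.36-fold, and largest in HSC2, at 1.95-fold, with 1.56-fold in HSC3 and 1.78-fold in Ca9-22. The call held with any of the 4 lines left out, at adjusted p between 0.0126 and 0.0463. KRT10 was read from its single probe set, so no second probe set could be compared.

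No other member passed the test. With the mimic, 1 of the 37 genes rose (2.70%, against 7.36% of all genes), 0 fell (against 5.19% of all genes) and 36 did not pass limma at an adjusted p of 0.05. At an unadjusted p under 0.05 limma found 2 higher, KRT10 and CRCT1, and 0 lower. The methods' t-test, which is unpaired, found 0 in either direction at an unadjusted p under 0.05, and its paired form, which the methods do not name, found 2 higher and 0 lower. Over the 37 genes the differences had a median of 0.04, beside 0.03 for all genes. HSC3 had the highest median of the list, 0.12, beside 0.04 for all genes. The medians were -0.02 for SAS-L1, 0.03 for HSC2 and 0.01 for Ca9-22, beside 0.01, 0.02 and 0.05 for all genes in those lines. CRCT1, a small cysteine-rich protein, and the plakin EVPL joined KRT10 as higher in each line, 3 of 37 genes where 20.9% of all genes were higher in each line. CRCT1 had a difference of 0.15 ± 0.06 (limma adjusted p = 0.161) at background signals. KLK5 was lower in each line, 1 of 37 genes where 11.9% of all genes were so. Neither share of the list exceeds that of all genes.

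**Figure D2:**
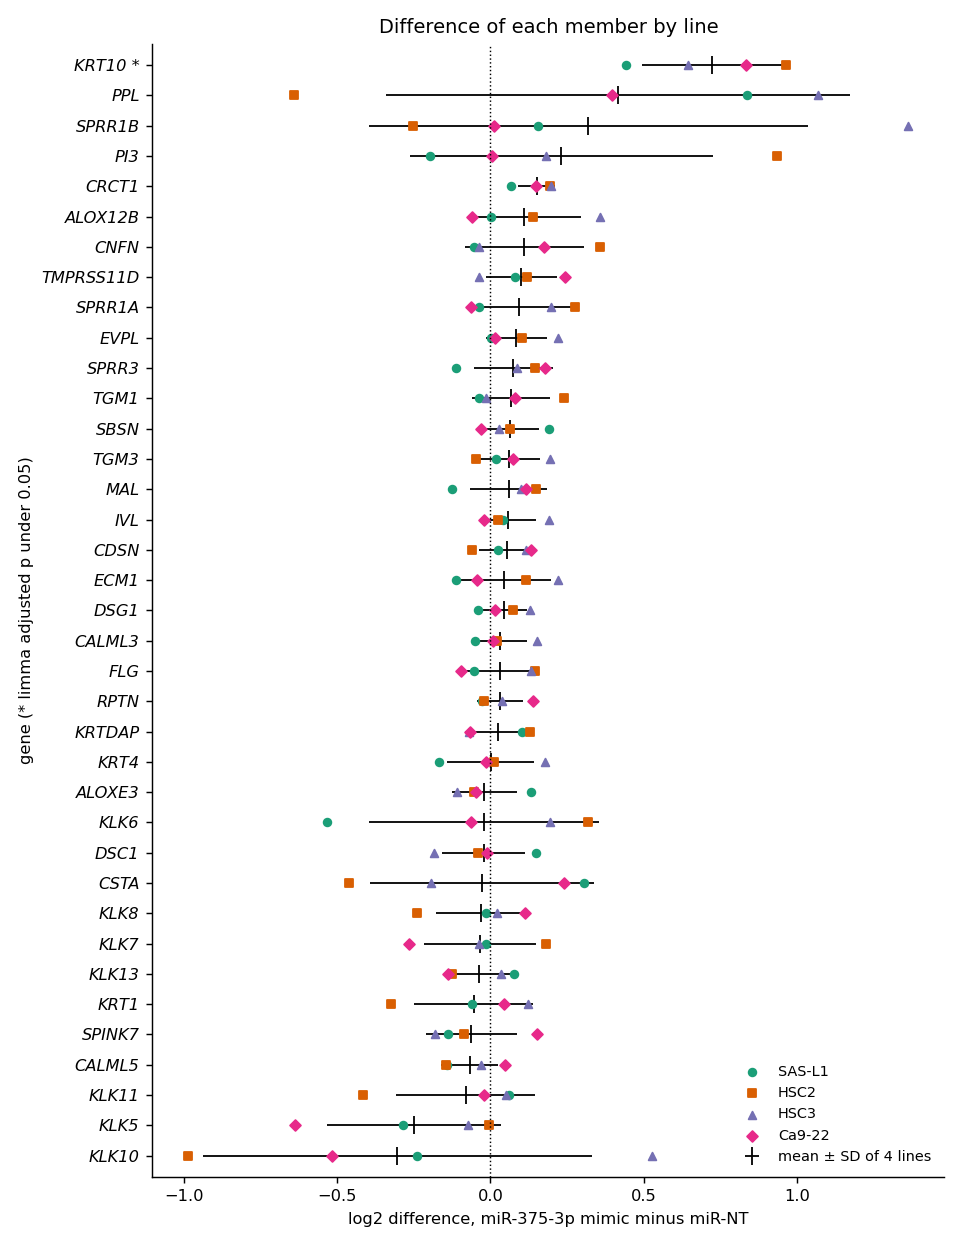
Log2 difference of the miR-375-3p mimic minus miR-NT (x axis) for 37 genes (y axis), with a symbol for each of the 4 lines and the mean ± SD of the lines in black. KRT10, marked with an asterisk, is the gene past the limma threshold, while PPL, SPRR1B, PI3 and KLK10 show the widest spread between lines.

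Among the envelope proteins, PPL and SPRR1B moved by more than 2-fold in HSC3 only. PPL, a plakin that joins the envelope to desmosomes and keratin filaments, had 7.25, 4.94, 9.15 and 8.67 with the mimic for SAS-L1, HSC2, HSC3 and Ca9-22, against 6.41, 5.58, 8.08 and 8.27 with miR-NT. It was higher in 3 lines, by 2.10-fold in HSC3, 1.79-fold in SAS-L1 and 1.32-fold in Ca9-22, and lower in HSC2. In HSC2 both values lay below the background level, so the 1.56-fold step there is not a measured fall. The mean log2 difference of 0.42 ± 0.76 did not pass the test (limma adjusted p = 0.418), with a 95% interval of -0.24 to 1.07. Leaving out HSC2 gave 0.77 (limma adjusted p = 0.0588), whereas leaving out SAS-L1 gave 0.28 and leaving out HSC3 gave 0.20 (limma adjusted p = 0.691 and 0.797). All 4 probe sets of PPL gave their highest mimic signal in HSC3 and their lowest in HSC2. In HSC2 they differed in direction, with 3 lower and 1 higher with the mimic. That last probe set rose by 0.39 ± 0.20 in a fit over all probe sets (limma adjusted p = 0.0389), although it was at background on all 8 arrays. The plakin partner of PPL, EVPL, had 5.49, 5.54, 5.51 and 5.87 with the mimic, against 5.49, 5.43, 5.29 and 5.86 with miR-NT, and lay near background.

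SPRR1B, a proline-rich protein that bridges other envelope proteins and is induced as squamous cells differentiate, had 3.54, 6.31, 6.69 and 3.71 with the mimic for SAS-L1, HSC2, HSC3 and Ca9-22, against 3.39, 6.56, 5.33 and 3.69 with miR-NT. It was above background in HSC2 under both conditions, in HSC3 with the mimic only, and in neither of the other lines. In HSC3 it was 2.57-fold higher with the mimic, the largest difference in any line among the probe sets read for the members, while the differences in the other lines were 0.15, -0.25 and 0.01. The mean difference of 0.32 ± 0.72 did not pass the test (limma adjusted p = 0.528), and without HSC3 it was -0.03. SPRR1A, its close relative, stayed at background with 4.09, 5.15, 4.27 and 4.22 with the mimic, against 4.12, 4.87, 4.08 and 4.29 with miR-NT, and was also brightest in HSC2. Probes of related SPRR genes can bind each other's transcripts, which these signals cannot separate.

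**Figure D3:**
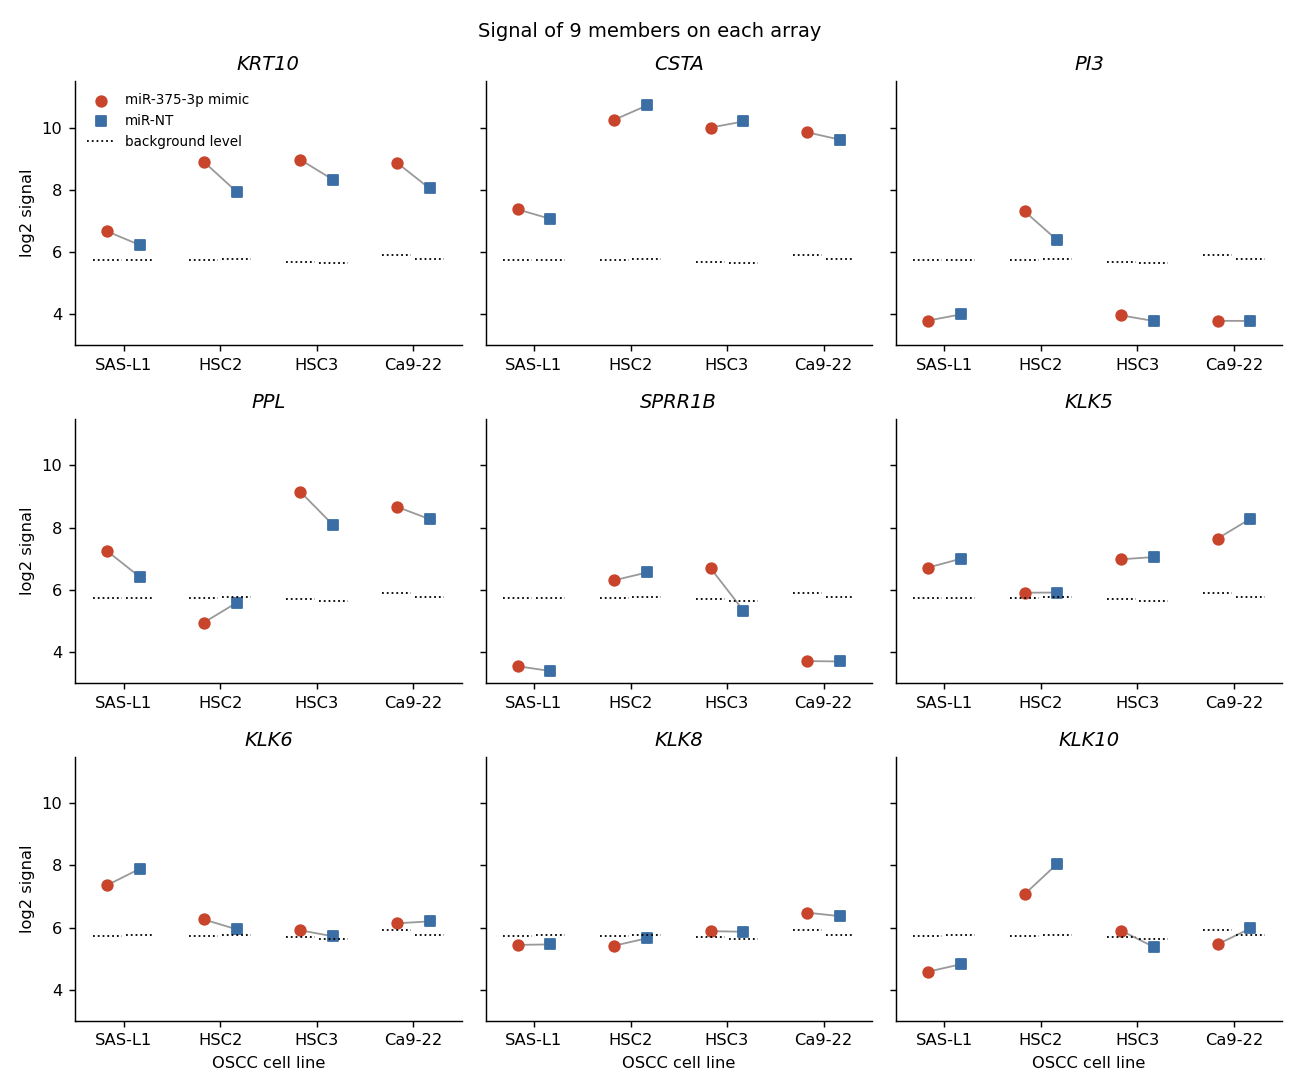
Log2 signal (y axis) of 9 members in the 4 OSCC lines (x axis), each line with its miR-375-3p mimic array (red circle, left) and its miR-NT array (blue square, right), 1 array per point. Dotted segments give the background level of each array, and the spread between lines exceeds the step between the 2 conditions in each panel.

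Of the 3 protease inhibitors measured, CSTA and PI3 differed between lines and none passed the test between the mimic and miR-NT. CSTA, an inhibitor of cysteine proteases that is also built into the envelope, had 7.37, 10.25, 10.00 and 9.85 with the mimic for SAS-L1, HSC2, HSC3 and Ca9-22, against 7.07, 10.71, 10.20 and 9.61 with miR-NT. SAS-L1 was the low line under both conditions, and within miR-NT the lines spanned 12.5-fold. The mean difference was -0.03 ± 0.36 (limma adjusted p = 0.936), with a 95% interval of -0.36 to 0.31, so a change of 1.5-fold in either direction lies outside it. PI3, the elastase inhibitor elafin and a substrate of transglutaminase, had 3.79, 7.31, 3.96 and 3.79 with the mimic, against 3.99, 6.38, 3.78 and 3.78 with miR-NT. It was above background in HSC2 alone, where it was 1.91-fold higher with the mimic. The mean difference of 0.23 ± 0.49 did not pass the test (limma adjusted p = 0.519). SPINK7, a Kazal-type inhibitor, was at background throughout and did not pass the test between lines (limma adjusted p = 0.681).

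The kallikreins lie next to one another on chromosome 19 in the order KLK5, KLK6, KLK7, KLK8, KLK10, KLK11 and KLK13, with KLK9 and KLK12 between them, yet they were not highest in the same line. KLK5, a trypsin-like protease that activates other kallikreins, had 6.71, 5.91, 6.98 and 7.65 with the mimic for SAS-L1, HSC2, HSC3 and Ca9-22, against 7.0, 5.91, 7.05 and 8.28 with miR-NT. Ca9-22 was the high line and HSC2 the low one, and the largest difference was 1.55-fold lower in Ca9-22. Its mean difference of -0.25 ± 0.28 did not pass the test (limma adjusted p = 0.232), with a 95% interval of -0.52 to 0.02, and without Ca9-22 it was -0.12 (limma adjusted p = 0.491).
KLK6, a trypsin-like kallikrein, had 7.36, 6.26, 5.91 and 6.13 with the mimic, against 7.89, 5.94, 5.72 and 6.20 with miR-NT. SAS-L1 was the high line for all 4 probe sets of KLK6, and each was lower with the mimic there, by 0.52 to 0.73 on the log2 scale. The read probe set had a difference of 0.32 in HSC2 and 0.19 in HSC3, and the mean over the lines was -0.02 ± 0.38 (limma adjusted p = 0.954).
KLK10, a secreted kallikrein of stratified epithelia, had 4.58, 7.07, 5.90 and 5.46 with the mimic, against 4.82, 8.05, 5.38 and 5.97 with miR-NT. HSC2 was the high line and showed a 1.98-fold lower signal with the mimic, whereas HSC3 showed a 1.44-fold higher one that just exceeded background. The mean difference of -0.30 ± 0.63 did not pass the test (limma adjusted p = 0.496). The second probe set of KLK10 was at background on all 8 arrays.
KLK8, an epidermal trypsin-like kallikrein, had 5.44, 5.42, 5.88 and 6.48 with the mimic, against 5.46, 5.65, 5.86 and 6.37 with miR-NT. By this probe set it was above background in HSC3 and Ca9-22. The other probe set of KLK8 was above background on 2 arrays, those of Ca9-22, and had 5.13 and 5.43 in HSC3. That probe set was lower with the mimic in each line, with a mean difference of -0.17 ± 0.10 (limma adjusted p = 0.156 over all probe sets). KLK7, the chymotrypsin-like kallikrein of skin shedding, came nearest to background in Ca9-22, with 5.27 with the mimic and 5.53 with miR-NT. KLK11, KLK13 and the transmembrane protease TMPRSS11D were at background.

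**Figure D4:**
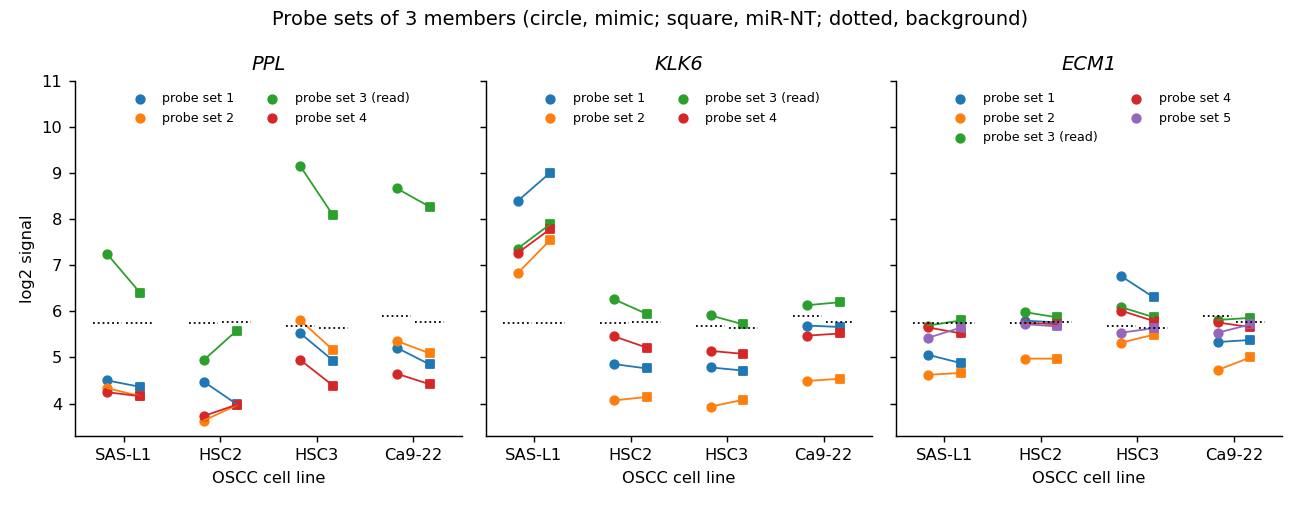
Log2 signal (y axis) of every probe set of PPL, KLK6 and ECM1 in the 4 lines (x axis), with the mimic as a circle on the left and miR-NT as a square on the right of each line, and the background level dotted. The KLK6 probe sets share SAS-L1 as the high line, whereas the read probe set of ECM1 is flat near background and those of its others that differ by line are highest in HSC3.

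Levels between the lines were compared over both arrays of each line with the condition as a further term. In this F test, 12 of the 37 genes differed between lines (32.4%, against 42.7% of all genes). Its error is what remains after line and condition, since each line had 1 array per condition. More of the list than of all genes was near background on all 8 arrays (64.9%, against 46.3%), so these shares do not compare genes of like signal. The 12 were CSTA, KRT10, PI3, KLK5, SPRR1B, KLK8, PPL, KLK6, KLK10, SPRR1A, KLK7 and EVPL (limma adjusted p between 3.16e-04 and 0.0219). SAS-L1 was the lowest line for 7 of them and HSC2 the highest for 5. Ca9-22 was the highest for 4, HSC3 for 2 and SAS-L1 for 1, which was KLK6. Within miR-NT the lines spanned 9.42-fold for KLK10, 9.0-fold for SPRR1B, 6.46-fold for PPL, 6.05-fold for PI3, 5.18-fold for KLK5, 4.52-fold for KLK6 and 4.30-fold for KRT10. The mean difference of the mimic was at most 1.65-fold for each of these. SPRR1A and KLK7 differed by line although both were near background. The second probe set of each did not pass the test between lines (limma adjusted p = 0.460 and 0.110 over all probe sets). The range between lines was under 0.5 on the log2 scale for 26 of the 37 genes.

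Members past 1.5-fold were counted line by line on the probe sets read, with no test. In SAS-L1 PPL was higher, 1 of 37 genes where 2.48% of all genes were, and 0 were lower (2.43% of all genes). In HSC2 KRT10 and PI3 were higher, 2 of 37 genes (3.33% of all genes). KLK10 and PPL were lower there, also 2 of 37 (3.59% of all genes), PPL between values below background. In HSC3 SPRR1B, KRT10 and PPL were higher, 3 of 37 genes (5.93% of all genes), and 0 were lower (5.65% of all genes). In Ca9-22 KRT10 was higher (4.64% of all genes) and KLK5 was lower (5.19% of all genes). Past 2-fold, SPRR1B and PPL were higher in HSC3, 2 of 37 genes where 1.37% of all genes were. In that line 0 members were lower (2.2% of all genes). No member passed 2-fold by its read probe set in SAS-L1, HSC2 or Ca9-22. The shares of all genes higher and lower were 0.367% and 0.587% in SAS-L1, 0.406% and 1.17% in HSC2, and 0.938% and 2.02% in Ca9-22. The other probe set of CALML3, not counted here, was 1.54 lower on the log2 scale with the mimic in Ca9-22.

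Other genes of the barrier were counted from a list of 80, of which 76 were measured. With the mimic 3 rose, where 7.36% of all genes did, 0 fell, where 5.19% did, and 73 did not pass limma. Near background on all 8 arrays were 57 of the 76, where 46.3% of all genes were. ELOVL4, which makes the very long fatty acids of barrier ceramides, rose 1.65-fold with a difference of 0.72 ± 0.18 (limma adjusted p = 0.00694). It had 7.10, 6.16, 3.61 and 6.50 with the mimic for SAS-L1, HSC2, HSC3 and Ca9-22, against 6.27, 5.44, 3.14 and 5.63 with miR-NT, and it was above background on 4 of 8 arrays, of which SAS-L1 was the only miR-NT one. The miR-NT signals of the other lines were below background, so the fold is read in part from such values. The fatty acid transporter SLC27A4 rose 1.28-fold (limma adjusted p = 0.0348) and the acid sphingomyelinase SMPD1 rose 1.36-fold (limma adjusted p = 0.0354). The call of SLC27A4 was lost without HSC2, HSC3 or Ca9-22 (adjusted p = 0.129, 0.113 and 0.0760) and that of SMPD1 with each of the 4 lines left out (0.0603 to 0.104), whereas ELOVL4 held without each line.

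Of 30 regulators of keratinocyte differentiation 27 were measured, and 2 rose and 0 fell with the mimic, where 7.36% of all genes rose and 5.19% fell. GRHL2, a grainyhead factor of epithelial identity, rose 1.25-fold with a difference of 0.32 ± 0.06 (limma adjusted p = 0.0214), and the Notch target HES1 rose 1.49-fold with 0.57 ± 0.36 (limma adjusted p = 0.0461). GRHL2 lost its call with each of the 4 lines left out (adjusted p = 0.0542 to 0.0876), and HES1 did not pass without SAS-L1, HSC2 or HSC3 (0.0769, 0.151 and 0.138). The list holds 3 subunits of AP-1, named after their values were seen because of the motif above. FOSL1 had 9.56, 7.76, 8.68 and 8.38 with the mimic for SAS-L1, HSC2, HSC3 and Ca9-22, against 9.68, 8.08, 9.92 and 9.22 with miR-NT. Its signal was lower in each line, with a mean of -0.63 ± 0.51 that did not pass the test (limma adjusted p = 0.0788). FOSL2 and JUNB had differences of 0.17 ± 0.17 and 0.05 ± 0.11 and did not pass it (limma adjusted p = 0.247 and 0.764).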

How the data were processed

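Total RNA of 4 OSCC lines was hybridized to 8 arrays. The authors computed the deposited log2 signals in GeneSpring GX 14.9.1 with RMA (robust multichip average), a background correction and normalization. The array medians lay between 4.96 and 5.00, and no genome build is given in the sources used here. Of 49386 probe sets, 45259 had 1 symbol, 1327 several and 2800 none. Each gene took the signal of its brightest single-symbol probe set, by the mean of all 8 arrays. Differences were fitted in R 4.3.3 with limma 3.58.1 (lmFit, eBayes; Benjamini-Hochberg over 18239 genes) with the cell line as a block, since the line pairs the arrays, and the fit was tested on simulated data. As a check, deviations from the condition means correlated at 0.836 to 0.886 within lines. Precision is limited by the small number of arrays. The limma p-values rest on how far the mimic minus miR-NT difference varied over the 4 lines. No spread within a line was measured. Full values are given for members past the threshold, past 1.5-fold on the mean or 2-fold in a line. They are also given for those with the highest signal of each role. Of each other list, up to 6 genes past the threshold are named. Further members above background were added after their values were seen. The members and lists were chosen with earlier results of these data known. Alternatives were no block, further normalizations, other probe set rules, a filter on dim genes, another variance model, the methods' t-test, a paired form of it and each line left out.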

Additional observations from a re-analysis of the deposited data

Results flagged for a closer look

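A single line stood far from the other 3 for 5 members. SAS-L1 was the low line with the mimic for KRT10 (6.66) and CSTA (7.37). HSC2 was the high line for PI3, with 7.31 with the mimic and 6.38 with miR-NT. HSC3 was the high line for ALOXE3 with miR-NT (5.97), close to background, and Ca9-22 for EVPL with the mimic (5.87), just below it. The gap was compared with Dixon's limit in 39 sets of 4 values, and chance marks about 1 set in 20. PPL moved in opposite directions in a pair of lines, with a log2 difference of 1.07 in HSC3 and -0.64 in HSC2. Both HSC2 values lay below background, and the probe sets of PPL differed in direction there. Each line had 1 array per condition, so this difference between lines was not tested.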

How the results depend on the processing

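KRT10 kept its rise and its call with array medians subtracted, quantile normalization, the mean of probe sets, probe sets without cross-binding types, dim genes left out, another variance model and each line left out. It lost the call without the replicate block (difference 0.72, adjusted p = 1.00), with the methods' t-test (0.72, adjusted p = 0.999) and with a paired t-test (0.72, adjusted p = 0.140), and under each of these 0 members and 0 related genes were called higher. No alternative called a member lower. With each line left out, 1 member and between 1 and 3 related genes were higher, and the difference ran between -0.14 and 0.12 for CSTA, -0.028 and 0.51 for SPRR1B, and -0.013 and 0.098 for ECM1, so the sign of each depended on the lines used. With dim genes left out, 7 members differed between lines and the median over the members was -0.021. The filter also removed members, SPRR1B and CDSN among them, so these values do not compare directly with those of the full list. The share of all kept genes that differed between lines is not given here. With array medians subtracted, and also with another variance model, 1 related gene was lower. At 2-fold, 0 members passed by their read probe sets in SAS-L1, HSC2 and Ca9-22 in either direction. With the mean of probe sets, 0 members were higher and 1 lower in SAS-L1, 0 were lower in HSC2 and 2 were lower in Ca9-22. Regulators higher ranged between 0 and 5 over the alternatives. Members near background were 21 at the 90th percentile, 17 at the median of all probe sets and 26 with the mean of probe sets. Of the 37 members measured, those 17 are not the greater part, so that statement depends on the level chosen. Signal over background limits the 24 genes at background.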
